A study of Saccharomyces cerevisiae with 16 samples.

Results

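The 25S rRNA is the long RNA of the large ribosomal subunit, and its 3' part, nucleotides 1451 to 3396, holds the peptidyl transferase centre, where peptide bonds form. This stretch was taken as rows 4702 to 6647 of the deposited pre-rRNA profile, 1946 of its 6647 nucleotides. Of its 892 A and C, the bases that the probe reads, 798 (449 A and 349 C) had an effective depth of at least 50 reads in each of the 16 libraries, and these are described here; the whole profile had 3042 A and C, 2756 of them at that depth. The site just inside the limit was C1710, with a lowest depth of 50 and mean rates with DMS of 0.186% in WT and 0.160% in H375A, and the site just outside was A2519, with a lowest depth of 49 and rates of 0.434% and 0.536%. All positions below are 25S nucleotides, counted from 1 at its 5' end.

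The RNA came from Saccharomyces cerevisiae, from small subunit (SSU) processomes, the early nucleolar particles that build 18S rRNA, pulled down through a TAP tag on their subunit Utp10, which all cells carried. Has1, a DEAD-box helicase that works in ribosome assembly, was wild type (WT) in some cells and carried an H375A change in the others (H375A), and cells were harvested from YPD medium at mid-log phase. Each of the 4 biological replicates of a genotype gave a library treated with dimethyl sulfate (DMS, 1%, 5 min at 30 °C) and an untreated control, so that there were 4 groups of 4 libraries. How the Has1 alleles were expressed was not given in the sources used here.

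DMS methylates the pairing face of A and C that are neither base-paired nor covered, and in DMS-MaPseq the reverse transcriptase leaves a mutation in the cDNA at such a base. The mutation rate, mutated reads over effective depth, is therefore a reading of how accessible a base was. In the precursor that yields all of these rRNAs, 25S follows 18S and 5.8S, and a cut in the spacer between 18S and 5.8S sends 25S into the large subunit, outside the SSU processome. The libraries do not record from which particle a 25S read came, and none of the 93 A and C of ITS2, the spacer that joins 5.8S to 25S before processing, reached a depth of 50 in every library. Some 25S bases carry a methyl group on their pairing face, set by dedicated enzymes during large subunit assembly, and those misread even without DMS.

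The sequences on which the results turn are given first, as read from the deposited profile, 5' to 3'. In the first 3, capitals mark sites that DMS raised in both genotypes. The stretch from 2801 to 2980 holds the peptidyl transferase centre, 3015 to 3037 the sarcin-ricin loop (SRL), which translation factors touch, and 2247 to 2271 the loop H69, which bridges to the small subunit.
Peptidyl transferase centre, 2801 to 2980: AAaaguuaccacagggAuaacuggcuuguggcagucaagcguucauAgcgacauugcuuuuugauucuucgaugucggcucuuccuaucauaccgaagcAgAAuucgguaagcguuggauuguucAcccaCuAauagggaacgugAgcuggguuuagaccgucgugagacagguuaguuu
SRL, 3015 to 3037: gaacuuaguacgAgaggaaCagu
H69, 2247 to 2271: gcgggaguaACuaugacucucuuAa
In the next set the capital is the methylated base, shown with 15 bases to either side: the 1-methyladenosine A2142, which Bmt2 sets, and the 3-methyluridines U2634 and U2843, which Bmt5 and Bmt6 set.
A2142: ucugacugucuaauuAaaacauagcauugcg
U2634: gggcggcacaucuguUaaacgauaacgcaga
U2843: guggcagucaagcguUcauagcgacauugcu
In the last set the capital is a site called between genotypes with DMS by the tool edgeR and not by the tool DESeq2. C2308 lies a pair of bases 3' of C2306.
C2306: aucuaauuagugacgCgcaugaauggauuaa
A2946: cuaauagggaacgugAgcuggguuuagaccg
A3336: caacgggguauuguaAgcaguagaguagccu
A2357: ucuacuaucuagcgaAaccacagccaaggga
A2401: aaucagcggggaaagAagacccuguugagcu

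Depth over this stretch was low and uneven. The median effective depth per library was 127, 787.5, 542 and 155 reads in WT with DMS, 121.5, 666, 652 and 154 in untreated WT, 99, 263, 1370.5 and 101 in H375A with DMS, and 186, 333, 1465 and 82 in untreated H375A. Replicate 3 of H375A thus held most of that genotype's reads, and sums over its 4 files lean on it. At a depth of 82, 2 mutated reads give a rate of 2.44% with a Wilson 95% interval of 0.671% to 8.46%; at 1465, a rate of 1.98% has an interval of 1.38% to 2.83%. Such intervals speak for counting error alone.

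Depth relative to 18S was lower on average in H375A, without passing the adjusted test. The ratio of median depths, 25S 3' part over 18S, was 0.418 ± 0.076 (SD, n = 4) in WT and 0.279 ± 0.019 in H375A with DMS (exact two-sided permutation test, p = 0.0286, the smallest that 4 against 4 allows; adjusted over 4 ratios p = 0.114). In the untreated libraries it was 0.414 ± 0.115 in WT and 0.288 ± 0.019 in H375A (exact permutation p = 0.0857, adjusted p = 0.171). With DMS the groups did not overlap, 0.319 to 0.502 in WT against 0.260 to 0.297 in H375A, and neither difference passed the adjustment. A single ratio at the smallest p could not pass it. Relative to 25S nucleotides before 1451 the ratio was 0.863 in WT and 0.862 in H375A untreated, and 0.820 and 0.837 with DMS (exact permutation p = 0.971 and 0.514). Less 25S and more 18S cannot be told apart in such a ratio.

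DMS acted on A and C of this stretch in both genotypes. The mean rate of A over its 449 sites was 0.895%, 1.25%, 1.23% and 1.25% in the 4 WT libraries with DMS and 0.438%, 0.417%, 0.413% and 0.450% in their untreated controls, a rise of 2.68-fold. In H375A it was 0.893%, 1.13%, 1.27% and 1.19% with DMS and 0.414%, 0.449%, 0.402% and 0.485% untreated, a rise of 2.57-fold. Replicate 1 was the lowest DMS library of both genotypes, and every DMS library lay above every untreated one.

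C rose less than A. Its mean rate was 0.751% ± 0.042 (SD, n = 4) with DMS against 0.378% ± 0.030 without in WT, 1.99-fold, and 0.776% ± 0.032 against 0.371% ± 0.027 in H375A, 2.09-fold. G rose slightly in WT, from 0.408% to 0.475%. Each of these 5 rises had the smallest p of the exact two-sided permutation test, 0.0286, or 0.0457 adjusted over the 8 tests. G in H375A (0.414% to 0.469%) had an adjusted exact permutation p of 0.0653, U in WT (0.521% to 0.576%) 0.0653 and U in H375A (0.507% to 0.535%) 0.2. These tests ignored that each DMS library shares its sample with a control. For every base the DMS library lay above its own control in 4 of 4 replicates of either genotype. A paired test was not run.

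Between genotypes the mean rate of no base passed the test, with or without DMS (exact permutation p from 0.171 to 1.00, adjusted at least 0.980). For A with DMS the means were 1.15% ± 0.17 in WT and 1.12% ± 0.16 in H375A. The rise with DMS, taken as each DMS library minus its own control, was 0.724 ± 0.178 percentage points in WT and 0.686 ± 0.160 in H375A for A, and 0.374 ± 0.040 and 0.404 ± 0.017 for C (exact permutation p for the 4 bases from 0.2 to 0.657).

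**Figure D1:**
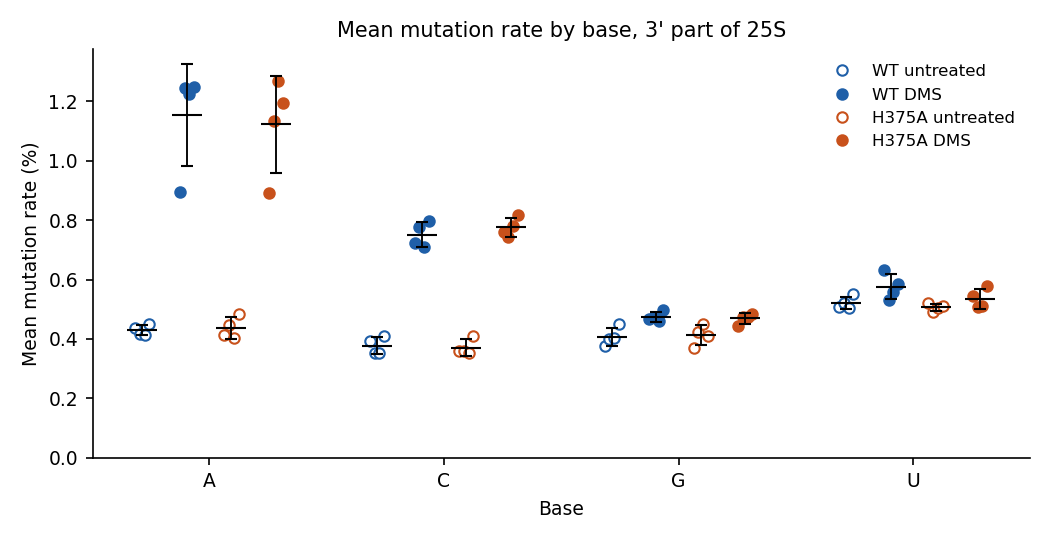
Mean mutation rate (%, vertical axis) over the A, C, G and U of the 25S 3' part with a depth of at least 50, one point per library, filled with DMS and open without, with bars for mean ± SD (n = 4). The DMS libraries lie above the untreated ones at A and C in both genotypes, with replicate 1 lowest at A.

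Compared with the other long rRNA stretches of the same libraries, A had a lower DMS rate here than in either, and C lay between them. With DMS, the WT and H375A means of A were 1.32% and 1.32% in 25S before nucleotide 1451, and 1.26% and 1.24% in 18S. The 3' part was lower than both in 8 of 8 DMS libraries (exact sign-flip permutation test, p = 0.0078, adjusted over 4 tests p = 0.0104). Untreated A was also higher in the 5' part, 0.598% and 0.615% against 0.430% and 0.437% in the 3' part, while in 18S it was 0.425% and 0.424%. The gap to the 5' part was thus present without DMS. The test took rates with DMS and not rises over the untreated rate, so it does not show a smaller rise in the 3' part. C of the 3' part lay above C of the 5' part, 0.626% and 0.612%, in 8 of 8 DMS libraries (exact permutation p = 0.0078, adjusted p = 0.0104), and above C of 18S, 0.784% and 0.789%, in 1 of 8 (exact permutation p = 0.0156). These comparisons were added after the data had been seen.

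Site by site, 778 of the 798 sites had at least 10 mutated reads over all libraries and were tested for a rise with DMS by edgeR's quasi-likelihood test, with Benjamini-Hochberg adjustment over the 2724 such sites of the whole profile and a threshold of 0.05. In WT 184 sites of the stretch rose (23.7%), against 32.4% over the profile, and in H375A 222 rose (28.5%), against 38.3%. This fit did not pair the DMS and untreated libraries of the same sample. With the replicate as a block, 155 rose in WT and 157 in H375A, so the genotypes' counts were nearly level. Over the profile's 2724 sites that fit called 810 and 894. The unpaired counts leaned on the deepest libraries: 117 rose in WT without DMS replicate 2, and in H375A 95 rose without DMS replicate 3 and 118 without untreated replicate 3, while DESeq2 called 99 and 106. A single site fell in WT, where the profile's share was 0.0734%. In both genotypes 134 sites rose, 98 A and 36 C, or 17.2% of those tested, against 27.3% over the profile. For 50 of them, 33 A and 17 C, no DMS library overlapped an untreated one in either genotype, 6.43% against a background of 13.3%. The shares of raised sites lay below those of the whole profile. Depth differed as well: 204 of the 892 A and C here reached a depth of 100 in every library, against 797 of 831 in 18S, and its part in the shares was not tested. The median log2 change with DMS over all sites tested was 0.90 in WT and 1.02 in H375A, beside 0.96 and 1.00 over the profile.

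The 134 sites lay along the whole stretch, with a median spacing of 8 nucleotides. In windows of 200 nucleotides the share raised in both genotypes ran from 3 of 42 sites (7.14%) in 3251 to 3396 to 12 of 50 (24.0%) in 2451 to 2650. The longest span without one was 3245 to 3335, where 23 sites were tested. Their mean rate with DMS minus untreated, over both genotypes, ran from 0.323 to 27.5 percentage points with a median of 1.44, and 7 sites exceeded 5. The share raised in both varied with the neighbouring bases, as a description over sites that share libraries and without a test: 9 of 27 A with an A on both sides (33.3%), 51 of 204 with an A on 1 side (25%) and 38 of 216 with none (17.6%). By the base that follows, the share was 41 of 129 before A, 17 of 77 before C, 26 of 131 before G and 14 of 110 before U.

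**Figure D2:**
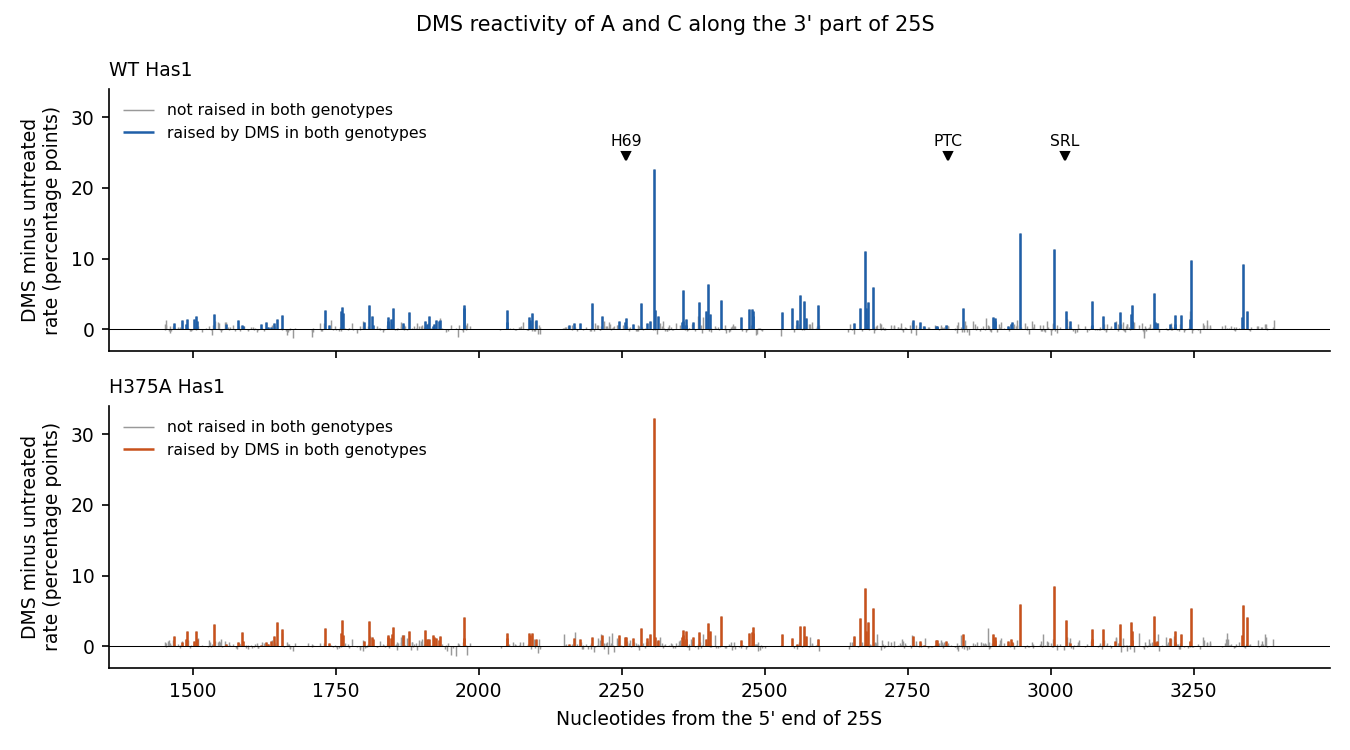
Mean mutation rate with DMS minus untreated (percentage points, vertical axis) at the 798 A and C sites against distance from the 5' end of 25S (nucleotides), for WT above and H375A below; coloured lines are the 134 sites that DMS raised in both genotypes, and triangles mark the medians of the listed sites in H69, the peptidyl transferase centre (PTC) and the SRL. C2306 is the tallest site in both genotypes, and the listed sites of the peptidyl transferase centre are far shorter.

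The 10 sites with the largest rise among the 50 without overlap were C2306, A2946, A3006, C2675, A3245, A3336, A2689, A2401, C3181 and A2424. They were chosen by their size, so the values describe them and their tests are not repeated. At C2306 the unscaled rate with DMS was 21.8%, 25.9%, 23.5% and 24.2% in WT and 32.3%, 33.3%, 36.2% and 37.0% in H375A, and the untreated rates ran from 0.0% to 1.99% and from 1.10% to 3.90%. At A3006 it was 10.7%, 12.5%, 10.8% and 14.1% in WT and 10.7%, 7.73%, 6.97% and 11.6% in H375A. C2675 read 9.38%, 10.7%, 10.4% and 14.1% in WT and 6.76%, 9.16%, 7.71% and 9.48% in H375A, and 6 of its 8 untreated libraries had no mutated read. Untreated rates of A3006 were at most 1.26%, so both sites stood out from their controls in every DMS library, with the genotypes' ranges overlapping. A3245 had means of 10.6% ± 2.8 and 6.78% ± 2.29 (SD, n = 4 each), A2689 6.66% ± 1.38 and 5.47% ± 1.39, C3181 5.71% ± 1.27 and 4.40% ± 1.22, and A2424 4.62% ± 2.04 and 4.83% ± 2.20 in WT and H375A. None of A3006, C2675, A3245, A2689, C3181 and A2424 passed the test between genotypes (edgeR adjusted p from 0.119 to 0.906).

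The listed bases of the peptidyl transferase centre were not among the tallest sites. Their median log2 change with DMS was 1.02 in WT and 0.86 in H375A, beside 0.90 and 1.02 over the tested sites of the stretch. All 5 were tested, and 2 rose with DMS in WT and 1 in H375A, none in both. Over the stretch 23.7% of sites rose in WT and 28.5% in H375A. A2820, the adenosine at the heart of the catalytic site, read 1.72%, 0.68%, 1.36% and 0.0% with DMS in WT and 0.59%, 0.78%, 0.77% and 0.0% in H375A, against untreated means of 0.466% and 0.123%. It rose in H375A (edgeR log2 change 2.06, adjusted p = 0.0194; 0.0562 with the replicate as a block) and not past the threshold in WT (1.02, adjusted p = 0.181). In both genotypes the library of replicate 4 had no mutated read there. Its neighbours A2819 and C2821 rose in WT. A2819 had 0.844% ± 0.589 with DMS and 0.287% without (edgeR adjusted p = 0.0385, and 0.0577 with the replicate block), and C2821 had 1.18% ± 1.22 and 0.721% (edgeR adjusted p = 0.0171). At C2821 the WT libraries with DMS had 0 mutated reads of 232, 20 of 1175, 25 of 944 and 1 of 274. Their controls had 3 of 219, 6 of 1140, 6 of 973 and 1 of 270, so replicates 1 and 4 showed no rise. A2971, a mobile adenosine of the centre, had the highest untreated rate of the 5, 1.63% ± 0.93 in WT and 1.71% ± 0.83 in H375A, and 2.43% ± 0.84 and 1.76% ± 1.64 with DMS (edgeR adjusted p = 0.118 and 0.333). A2872 had 1.06% and 1.19% with DMS against 0.521% and 0.582% without (edgeR adjusted p = 0.572 and 0.256). None of the 5 passed between genotypes (edgeR adjusted p from 0.767 to 0.979). Within 2801 to 2980, the 11 capitals printed above include A2847, at 3.64% in WT and 2.30% in H375A, and A2946.

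In the SRL, A3027, the base that the toxin ricin removes, rose in both genotypes. Its rate with DMS was 1.88%, 3.50%, 2.88% and 4.17% in WT and 1.83%, 5.95%, 3.01% and 6.85% in H375A, against untreated means of 0.564% ± 0.385 and 0.715% ± 0.580. The log2 change was 2.23 (edgeR adjusted p = 0.000381) in WT and 2.49 (adjusted p = 4.19e-05) in H375A. A3029 rose in WT, 1.87% ± 0.78 against 0.352% ± 0.352 (edgeR adjusted p = 0.00129), and had 1.99% ± 1.33 against 0.645% ± 0.745 in H375A (adjusted p = 0.106). A3024 and C3025 did not pass in either genotype, and A3021, with a lowest depth of 46, was not tested. Of the 2 SRL sites tested between genotypes, A3027 and A3029, neither passed (edgeR adjusted p = 0.971 and 0.979).

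Of the 6 listed H69 sites, those that rose lay on the 5' side; A2270, printed above as a capital and not on the list, rose in both genotypes, by 0.764 percentage points in WT and 1.19 in H375A. C2257 rose in both genotypes, with 1.35%, 2.73%, 3.03% and 0.0% in WT against an untreated mean of 0.106%, and 2.38%, 0.75%, 1.34% and 0.99% in H375A against 0.0144% (edgeR log2 changes 3.50 and 4.29, adjusted p = 5.34e-06 and 4.45e-05). A2256 rose in both, to 1.44% ± 0.26 in WT (edgeR adjusted p = 0.0156) and 1.98% ± 1.65 in H375A (adjusted p = 0.00635). A2255 rose in H375A, 0.902% against 0.187% (edgeR adjusted p = 0.0227, and 0.0971 with the replicate block), and had 0.598% against 0.279% in WT (adjusted p = 0.102). A2259, A2262 and C2263 passed in neither genotype. No listed H69 site passed between genotypes (edgeR adjusted p from 0.420 to 0.971).

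The bases methylated on their pairing face misread in every library. At U2843 the untreated rate was 51.5%, 54.8%, 53.3% and 58.1% in WT and 38.9%, 38.0%, 42.7% and 42.3% in H375A, at depths of 71 to 1294 reads. All H375A libraries lay below all WT libraries, where the WT mean was 54.4% ± 2.8 and the H375A mean 40.5% ± 2.3 (SD, n = 4 each; exact two-sided permutation p = 0.0286, adjusted over 10 tests p = 0.286). Summed over files, the rate was 54.2% in WT, with a Wilson 95% interval of 51.7% to 56.8%, and 41.5% in H375A, from 39.3% to 43.7%. With DMS the H375A library of replicate 1 read 53.5% and the other 3 34.7% to 39.0%, against 48.9% to 55.1% in WT (means 41.4% ± 8.3 and 52.0% ± 3.2, exact permutation p = 0.0857, adjusted p = 0.357). With DMS, 3 of 4 H375A libraries thus lay below all WT libraries. The DMS libraries came from the same samples as the untreated ones and are no independent repeat. The difference did not pass an adjusted test in either set. The untreated p was the smallest that 4 against 4 allows. Complete separation at a single base therefore could not pass over 10 tests. In edgeR's test of the untreated libraries, which covered 560 sites of all bases over the profile and called 0.0% of them, U2843 was the only site of the stretch with enough mutated reads; its log2 difference was −0.43 ± 0.13 (SE), with an unadjusted p of 0.0044 and an adjusted p of 0.997, or 0.0533 with a replicate block.

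U2634 had a similar untreated rate in WT, 55.6%, 58.1%, 51.4% and 54.5%, and a scattered one in H375A, 40.0%, 28.3%, 35.5% and 55.6%, the last at a depth of 18 reads. The means were 54.9% ± 2.8 and 39.8% ± 11.5 (exact permutation p = 0.114, adjusted p = 0.357). DMS libraries read lower, 26.3%, 45.4%, 27.5% and 30.8% in WT and 32.0%, 23.3%, 25.2% and 13.5% in H375A, and the genotypes overlapped (exact permutation p = 0.2, adjusted p = 0.4). The DMS library was below its own control in 4 of 4 replicates of either genotype, a comparison added after the rates had been seen. The exact permutation test between the groups, which ignored this pairing, gave p = 0.0286 in WT and 0.0571 in H375A (adjusted over 10 tests p = 0.286 in both). At the smallest p that 4 against 4 allows, a single test could not pass that adjustment. An exact paired test was not run, and with 4 pairs it could not go below 0.125. No such difference was measured at U2843, with means of 52.0% and 54.4% in WT and 41.4% and 40.5% in H375A with and without DMS (exact permutation p = 0.257 and 0.886).

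At A2142 the genotypes' ranges overlapped throughout. Without DMS, WT libraries read 53.1%, 59.7%, 61.7% and 53.9% and H375A libraries 46.2%, 60.1%, 59.5% and 53.7%, and with DMS the means were 54.8% ± 6.0 and 53.7% ± 3.0 (exact permutation p = 0.543 and 0.743). The 5-methylcytidines C2278, which Rcm1 sets, and C2870, which Nop2 sets, carry their methyl group away from the pairing face, and the untreated mean was 0.293% in WT and 0.0360% in H375A at C2278 and 0.682% and 0.868% at C2870, beside 0.378% and 0.371% over all C of the stretch. Neither passed a test between genotypes (exact permutation p at least 0.143) or a test for a rise with DMS. Read depth was low at both A2142 and U2634. Relative to the median depth 51 to 150 nucleotides away it was 0.464 ± 0.187 in WT and 0.476 ± 0.127 in H375A at A2142 untreated, 0.429 ± 0.112 and 0.414 ± 0.107 at U2634, and 0.940 ± 0.124 and 0.995 ± 0.246 at U2843. No relative depth at a modified base passed between genotypes (exact permutation p at least 0.171).

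**Figure D3:**
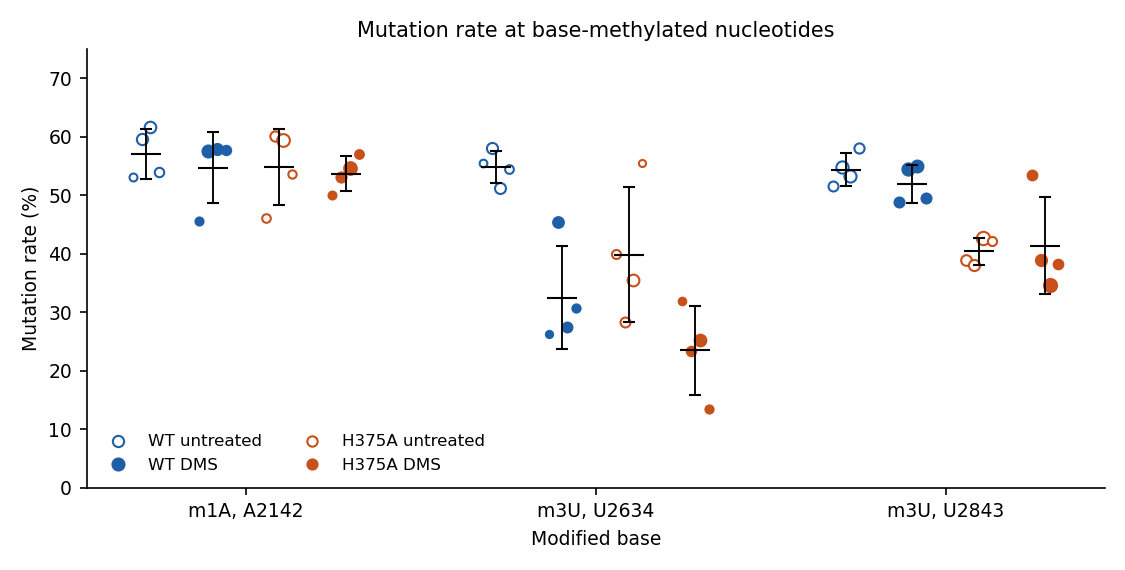
Mutation rate (%, vertical axis) at A2142, U2634 and U2843 in each library, filled with DMS and open without; larger points have more reads, and bars are mean ± SD (n = 4). At U2843 the 4 untreated H375A libraries (38.0% to 42.7%) lie below the 4 untreated WT libraries (51.5% to 58.1%), and at U2634 the DMS means (32.5% and 23.5%) lie below the untreated means (54.9% and 39.8%).

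Between genotypes, few sites of the stretch were called for a difference in DMS rate, and most of those were lower in H375A. The shares called were no higher than over the whole profile. Of 447 sites whose mean rate rose by at least 0.2 percentage points with DMS and was under 5% untreated, edgeR called 8 (1.79%), against 2.18% over the profile: 7 lower in H375A (1.57%, against 1.62%) and 1 higher (0.224%, against 0.562%). For 2 of the 8, A2401 and C2306, the genotypes did not overlap (0.447%, against 1.06%). Rates were first divided by a scaling factor per library for the part of the profile after the A2 cleavage site, from 0.927 to 1.21. The count fell to 2 without WT replicate 2, 1 without WT replicate 3, 5 without WT replicate 4, 3 without H375A replicate 2 and 2 without H375A replicate 3. With 1 factor for the whole profile the count stayed at 8 and split into 6 lower and 2 higher. The median log2 difference was 0.05 over the 447 sites and 0.02 over the profile's 1602. The scaling factors are median ratios over tested sites, which holds these medians near 0, so they cannot show a general shift. No site was called by DESeq2, where 13 had an unadjusted p under 0.05. The same held for edgeR's interaction, a test of the genotype difference beyond that of the untreated libraries, fitted without scaling (lowest adjusted p 0.279). In it 19 sites had an unadjusted p under 0.05. The following 8 thus rest on edgeR's comparison of the DMS libraries alone.

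A2946, 25 nucleotides before A2971 of the peptidyl transferase centre, had the lowest adjusted p. Its scaled rate was 6.47%, 16.4%, 20.5% and 13.9% in WT and 3.47%, 7.45%, 7.58% and 6.42% in H375A. The WT library of replicate 1 lay within the H375A range, and the other 3 lay above it. Means were 14.3% ± 5.9 and 6.23% ± 1.91, a log2 difference of −1.16 ± 0.19 (SE; edgeR adjusted p = 4.53e-07), with untreated means of 0.656% and 0.631%. It stayed called when each of the 8 libraries was left out in turn (adjusted p up to 0.00189) and missed the threshold in DESeq2 (adjusted p = 0.0768). The C2942 and A2941 beside it had scaled rates of 2.02% and 1.06% in WT and 0.815% and 1.13% in H375A and were not called.

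A3336, near the 3' end of 25S, read 6.60%, 8.5%, 11.7% and 12% in WT and 3.67%, 7.24%, 5.68% and 5.45% in H375A on the scaled level. Only the H375A library of replicate 2 reached into the WT range. The log2 difference was −0.77 ± 0.20 (SE; edgeR adjusted p = 0.0073), and the call held in 6 of 8 fits that left out a library. Untreated means there were 0.445% in WT and 0.0507% in H375A, and in the interaction with treatment the log2 value turned to 0.91 (edgeR adjusted p = 1.00). The interaction was unscaled, and the untreated H375A libraries had 0, 0, 4 and 0 mutated reads there, so its sign rests on few reads. Its neighbour A3335 was level, at 1.96% and 1.74%.

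The stretch from 2251 to 2450 held 5 of the 8 called sites, among 58 of the 447 sites tested between genotypes. C2306, the tallest site, was the only one higher in H375A: 23.5%, 25.1%, 24.6% and 22.9% scaled in WT against 31.7%, 33.8%, 34.5% and 30.7%, with no overlap (log2 difference 0.45 ± 0.14, edgeR adjusted p = 0.0461). The call held in 1 of 8 leave-out fits, with adjusted p up to 0.424. C2308, a pair of bases away, went the other way, with 1.88%, 4.02%, 3.88% and 2.62% in WT and 0.0%, 1.67%, 1.37% and 2.34% in H375A (log2 difference −1.34 ± 0.38, edgeR adjusted p = 0.0221; held in 4 of 8). Depths with DMS ran from 96 to 1523 at C2306 and from 102 to 1522 at C2308.

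A2357 had scaled rates of 3.06%, 6.99%, 6.86% and 6.38% in WT and 1.02%, 2.15%, 3.61% and 3.19% in H375A (log2 difference −1.05 ± 0.28, edgeR adjusted p = 0.00986; held in 5 of 8). The adjoining A2356 and A2358 were at 1.10% and 1.29% in WT and 1.32% and 1.69% in H375A and were not called. A2401 had 4.73%, 6.72%, 6.44% and 9.27% in WT and 4.05%, 3.28%, 3.42% and 3.83% in H375A, with no overlap (−0.96 ± 0.28, edgeR adjusted p = 0.0261; held in 3 of 8). C2284 had 2.88%, 4.90%, 5.23% and 5.00% in WT and 0.85%, 4.36%, 1.74% and 2.83% in H375A (−1.13 ± 0.30, edgeR adjusted p = 0.0134; held in 5 of 8). Its untreated means were 0.783% and 0.0707%, and in the interaction with treatment the log2 value turned to 0.72 (edgeR adjusted p = 1.00). That unscaled fit had 0, 0, 6 and 0 mutated reads in the untreated H375A libraries, so its sign rests on few reads. A2198, just outside this span, had 2.14%, 3.90%, 5.03% and 4.73% in WT and 0.0%, 1.04%, 2.35% and 1.87% in H375A (−1.07 ± 0.31, edgeR adjusted p = 0.0248; held in 3 of 8). WT replicate 1 was the lowest WT library at all 7 sites that were lower in H375A, and at 6 of them, all but A2401, it was the only WT library within the H375A range. H375A replicate 1 was likewise the lowest H375A library at those 6 sites. Without WT replicate 1 these 7 sites stayed called and C2306 did not (edgeR adjusted p = 0.0752).

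**Figure D4:**
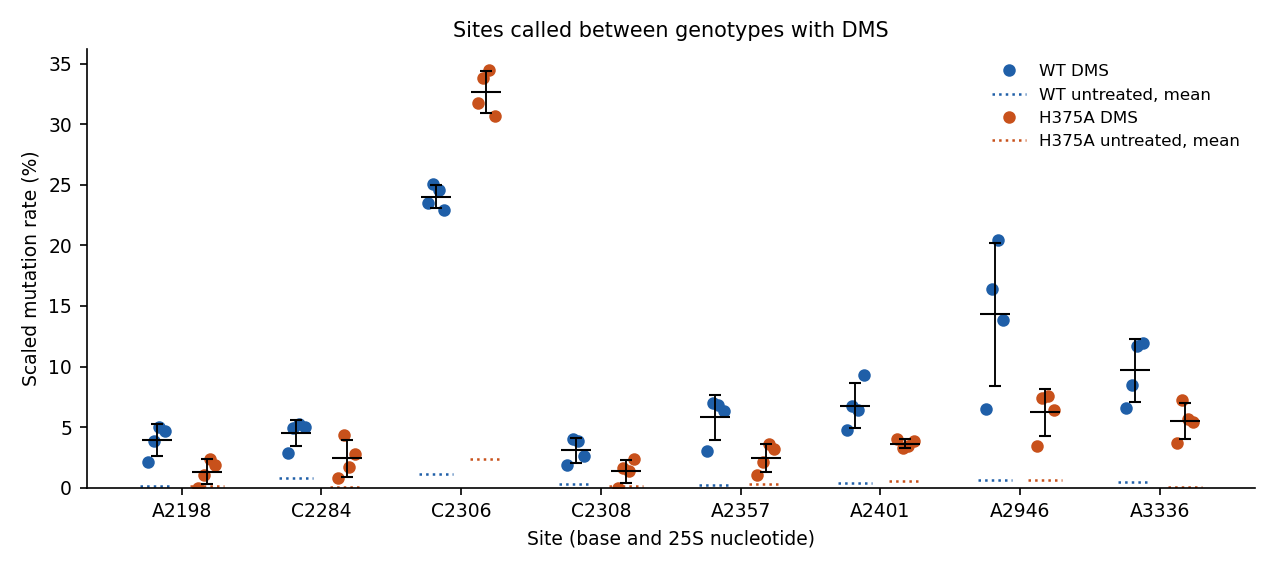
Scaled mutation rate (%, vertical axis) of each DMS library at the 8 sites called between genotypes, with bars for mean ± SD (n = 4) and dotted lines for untreated means. At 7 sites the H375A mean is lower, and at C2306 all H375A libraries lie above all WT libraries.

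Summed over 200-nucleotide windows, no region differed past the threshold. limma on the mean scaled rate called 0.0% of the 33 windows of the profile. Of the 10 windows of the stretch, 2 had an unadjusted p under 0.05. The lower p was that of 2851 to 3050, with 1.61% ± 0.06 in WT and 1.30% ± 0.12 in H375A (log2 difference −0.32 ± 0.07, unadjusted p = 0.0021, adjusted p = 0.0702); it contains A2946. The window 2451 to 2650 had 1.91% ± 0.12 and 1.37% ± 0.31 (−0.51 ± 0.15, limma adjusted p = 0.156). Neither window's libraries overlapped between genotypes, though narrowly in 2451 to 2650 (lowest WT 1.77%, highest H375A 1.70%). Both windows were picked by their p, so this adds no support, and overlap was not counted over the profile. With 1 scaling factor for the whole profile, these 2 windows and 1851 to 2050, which was higher in H375A, passed at an adjusted limma p of 0.0453. The share of all 33 windows that passed with that factor was not counted. These calls are therefore not shown to be particular to the stretch.

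**Figure D5:**
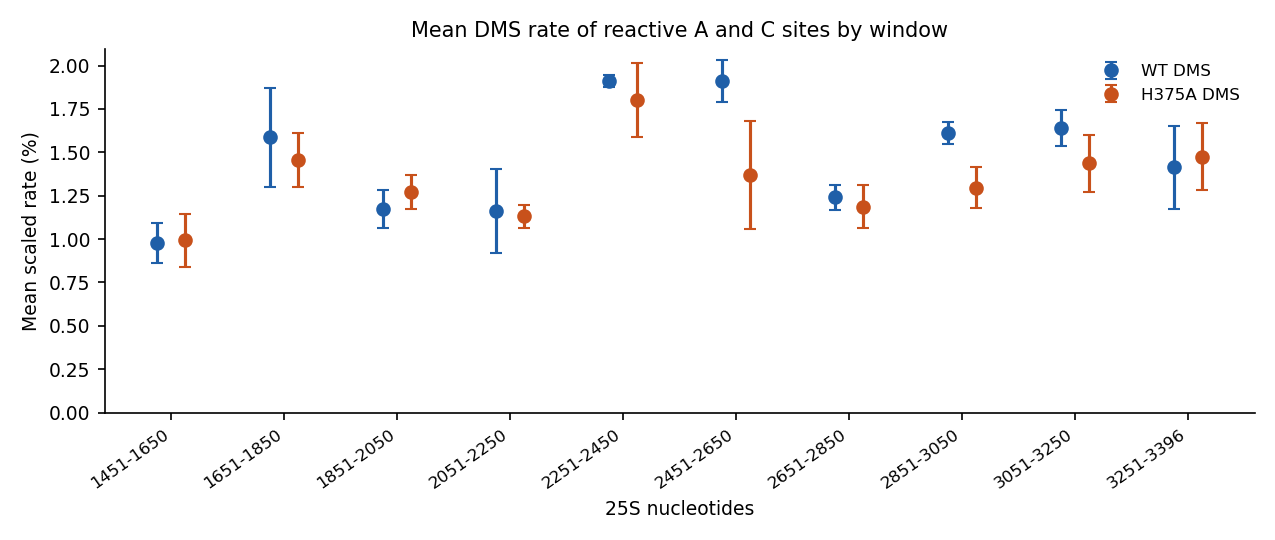
Mean scaled rate with DMS (%, vertical axis) of the tested A and C sites in 200-nucleotide windows along the 25S 3' part, mean ± SD over 4 libraries. The genotypes differ most in 2451 to 2650 and 2851 to 3050, where WT is higher, and neither window passed the test.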

How the data were processed

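Profiles of 16 libraries were used, 4 per genotype and treatment, grouped by the labels. The deposited counts were, per the file headers, mutated reads, read depth and effective depth per nucleotide; the authors' mutation rate, a fraction, equalled mutated reads over effective depth within rounding. The aligner, mutation caller, filters and genome build are not given in the sources used here; RefSeq's R64 annotation gave the 25S length of 3396. The many rDNA copies were read as 1 sequence, and PCR duplicates cannot be told apart in the counts. The members, lists and tests were chosen with earlier results of these data known.

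edgeR 4.0.16 (R 4.3.3) tested mutated reads with log effective depth as offset, adjusted over the profile; the genotype test added the median-ratio scaling factors, taken separately before and after the A2 site. limma 3.58.1 tested windows with at least 5 sites, and DESeq2 1.42.0 was an alternative. Exact permutation tests were two-sided. Scripts were tested on simulated data. Named sites were those called between genotypes, the 10 largest rises, the modified bases and the listed bases, whose 25S numbers came from general knowledge and were checked by base or motif.

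DMS and untreated libraries of 1 number come from the same sample, per the series' design text; their deviations from the group means correlated at -0.0092 to 0.194. Numbers across genotypes are not stated to pair: deviations of same-numbered libraries correlated at -0.0016 to 0.0790 with DMS and 0.0663 to 0.417 without.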

Additional observations from a re-analysis of the deposited data

Results flagged for a closer look

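Of 72 group values examined, 7 had 1 library far from the other 3, where chance gives about 3.6. The measure is the gap to the nearest library over the whole range of the 4. In WT with DMS it was 0.937 for the mean rate of A (replicate 1 at 0.895%), 0.967 for A2142 (replicate 1 at 45.7%, from 35 reads), 0.896 for C2284 (2.67% unscaled) and 0.849 for A2357 (2.84% unscaled). In H375A with DMS it was 0.859 for A2946 (3.53% unscaled). In untreated H375A it was 0.880 for the mean rate of C (replicate 4 at 0.412%) and 1.00 for C2278 (0.144% in replicate 3, with no mutated read in the others).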

How the results depend on the processing

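Counts of calls depended on the tool and the reads. DESeq2 called 99 sites in WT, 106 in H375A and 0 between genotypes, with no adjusted p at 317 sites in WT and 301 in H375A. A depth minimum of 100, which tests fewer sites, gave 53, 67 and 1. Leaving out 1 library gave 117 to 193 in WT (fewest without DMS replicate 2), 95 to 245 in H375A (fewest without DMS replicate 3, and 121 without untreated replicate 3) and 1 to 8 between genotypes (1 without WT DMS replicate 3). Without scaling 2 sites were called between genotypes. The interaction with treatment, also unscaled, called 0. In it C2284 (0.72) and A3336 (0.91) reversed on the log2 scale, with few mutated reads in untreated H375A, and the cause was not tested. The replicate block gave 155, 157 and 9 calls, with 0 for the untreated libraries and 0 windows, and beyond A2819, A2255 and A2820 changed no call of a named site; across genotypes same-numbered libraries correlated best with each other in 2 of 4 pairs with DMS and in 4 of 4 without. With 1 scaling factor 3 windows of the stretch passed, and windows outside it were not counted.

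The rise of A by the median site was 0.534 percentage points in WT and 0.651 in H375A, of C 0.149 and 0.0670 and of G in WT 0.0474; at a depth of 100 the mean rises were 0.665, 0.710, 0.324, 0.338 and 0.0471. None passed after adjustment, which depends on how many of the 8 tests reach the smallest p. Leaving out 1 library gave rises of 0.693 to 0.810 (A), 0.359 to 0.388 (C), 0.0571 to 0.0811 (G) and 0.0373 to 0.0711 (U) in WT and 0.0400 to 0.0675 (G) in H375A, on either side of the threshold. The untreated genotype test had no site of the stretch at a depth of 100. Median depths under 200 reads in 8 libraries limit the precision of low rates.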
